A study of Danio rerio with 2 samples.

Results

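Core genes of the circadian clock were followed in zebrafish after knockdown of *miR-132*, a microRNA abundant in neurons. The genes were chosen by name: 4 period genes (*per1a*, *per1b*, *per2* and *per3*), *clocka* and *clockb*, the REV-ERB receptors *nr1d1* and *nr1d2a*, and the cryptochromes *cry1a* and *cry2*. Of these 10 genes, 9 had spots that could be matched to them, among 11976 genes measured in all. No spot was matched to *clockb* by accession, and spots were not matched by gene name, so it was not analysed here. For the other genes, any spot without a matching accession was not read either. The data are 2 one-colour arrays of total RNA from whole embryos at 3 dpf. The first array holds RNA of embryos injected with 8 ng of *miR-132* MO and the other RNA of embryos injected with 8 ng of Ctrl MO, a morpholino (an antisense oligonucleotide) that served as the control. Both groups were freed of the chorion with pronase and kept in Hanks' solution. By the paper's general husbandry methods, this solution held phenylthiourea (PTU) against pigment formation. The labels give neither the strain nor the number of embryos per RNA sample. Each group is 1 array, so no replicate error exists, no test was made, and every ratio compares 2 RNA samples, not the conditions.

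In vertebrates, the clock is a feedback loop: heterodimers of CLOCK and BMAL drive transcription of the period and cryptochrome genes, and the PER and CRY proteins then inhibit those heterodimers. A companion loop joins the REV-ERB receptors, which repress BMAL genes, to the ROR receptors, which activate them. Transcripts of most of these genes rise and fall over the day, in zebrafish in the pineal gland, the retina and nearly all other tissues, and light can drive some of them directly. A level at 1 moment therefore depends on the hour of sampling. The embryos were raised under a light-dark cycle, and the sources used here give no hour of sampling for either array. A difference in sampling hour and the effect of the morpholino cannot be told apart in these arrays. In RNA of whole embryos, fewer cells of a type and less RNA per cell cannot be told apart either.

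The intensity of the *miR-132* MO array was less precise at its low end. Of the transcript spots, 80.3% were well above background on the *miR-132* MO array and 88.0% on the Ctrl MO array. The 153 negative control spots had an SD of 19.4 intensity units on the *miR-132* MO array and 4.17 on the Ctrl MO array. That SD was taken over all negative control spots on the background-subtracted signal, without the outlier filter. The probe readings below are the background-subtracted and detrended signal of unflagged spots, so the SD and the readings are not strictly alike. The 75th percentile of the intensity was 866 on the *miR-132* MO array and 731 on the Ctrl MO array, and all log2 ratios below are set relative to these percentiles, so that a ratio can lie below 0 where the raw intensities are close. Of all measured genes, 492 were higher in *miR-132* MO embryos by 1.5-fold or more and 963 were lower. Scaling to 7 spike-in probes, which raised every ratio by 0.06, gave 649 higher and 805 lower genes.

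Among the 9 measured clock genes, *nr1d1* and *per1a* were lower by 1.5-fold or more in *miR-132* MO embryos and none was higher by that fold. These 2 genes are 22.2% of the clock genes, beside 8.04% of all genes lower by that fold and 4.11% higher. The median log2 ratio of the 9 genes was 0.04, with 5 genes above 0 and 4 below, beside a median of -0.01 for all genes. The genes spread between -1.11 for *nr1d1* and 0.41 for *clocka*, and the period, REV-ERB and cryptochrome families each held members on both sides of 0. The clock genes were read by 16 probes, of which 3 were lower by 1.5-fold and 0 higher, while 8.75% of all measured probes were lower and 5.57% higher. The lower probes include the dim *per1a* probe, which was counted by a nominal bound. With a single reading per group, an overlap of the groups cannot be judged.

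**Figure D1:**
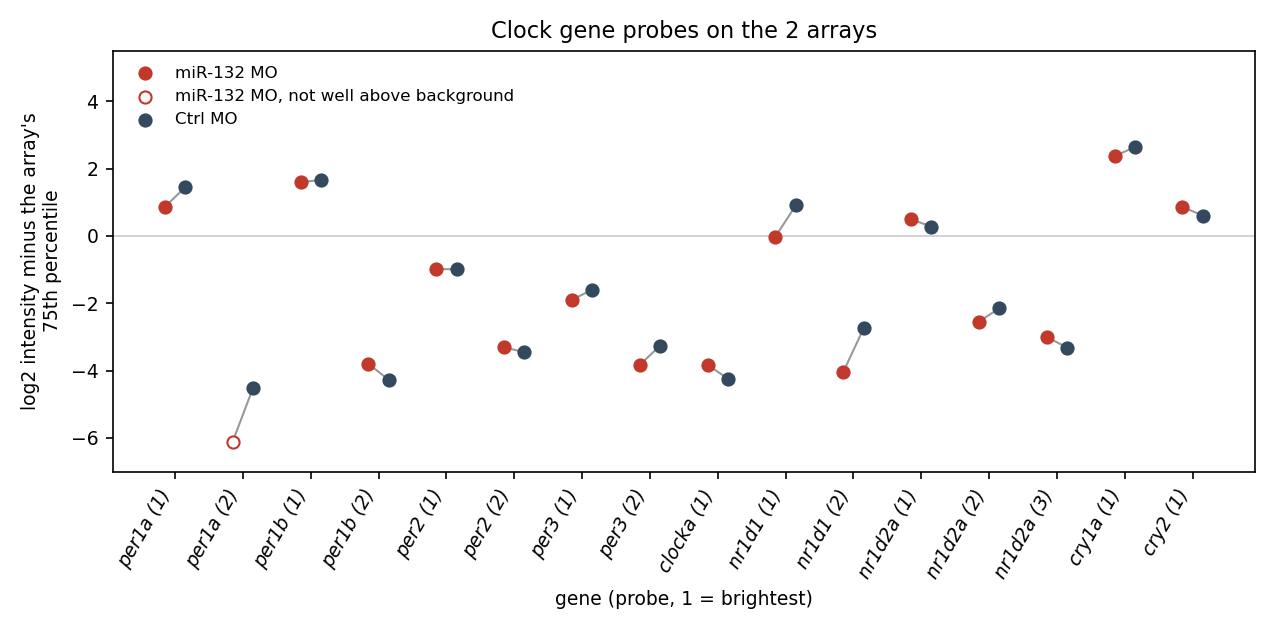
Log2 intensity minus the 75th percentile of its array (vertical axis) for each probe of the 9 measured clock genes, 1 point per array, *miR-132* MO in red and Ctrl MO in blue, joined by a line. The widest gaps are those of the second *per1a* probe (open circle, not well above background) and of both *nr1d1* probes, with *miR-132* MO on the lower side.

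The REV-ERB receptors are nuclear receptors that repress transcription when bound to heme. *nr1d1* encodes the zebrafish form of REV-ERB alpha. Its brighter probe read 852 on the *miR-132* MO array and 1370.4 on the Ctrl MO array, a log2 ratio of -0.93 ± 0.20, where the error is the scanner software's spot error and not a replicate error. That error was nearly constant among bright probes (0.2041 here, 0.2040 for *cry1a* and the bright *per1b* probe). Comparisons with it are therefore not comparisons with a spread measured on each spot. The dimmer *nr1d1* probe read 52.5 in *miR-132* MO and 108.9 in Ctrl MO embryos, a log2 ratio of -1.30 ± 0.23. Both probes were thus well above background on both arrays and lower in *miR-132* MO embryos, by 1.91-fold and 2.46-fold. Averaged over the probes, *nr1d1* was 2.16-fold lower (log2 ratio -1.11). Every probe matched to *nr1d1* by accession passed 1.5-fold, which held for 1 of the 9 clock genes and in the same direction for 6.77% of all measured genes. That share includes genes read by a single probe, so it is not the share among genes with 2 probes. The ratios of its probes lay 0.37 apart, beside a median of 0.18 and a 90th percentile of 0.59 over 4296 genes with 2 probes.

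*nr1d2a*, a REV-ERB beta gene with overlapping repressor function, did not follow *nr1d1*. Its brightest probe read 1214 in *miR-132* MO and 887 in Ctrl MO embryos (log2 ratio 0.21). The next read 148 in *miR-132* MO and 165 in Ctrl MO embryos (-0.39), and the dimmest 108 in *miR-132* MO and 73.2 in Ctrl MO embryos (0.32). The sign of the *nr1d2a* ratio therefore depended on the probe, and its mean was 0.04. Its probes lay 0.71 apart, close to the 90th percentile of 0.72 among 1737 genes with 3 probes.

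The period proteins form the inhibitory arm of the loop together with the cryptochromes. *per1a*, 1 of the zebrafish copies of *PER1*, was the other gene past 1.5-fold. Its bright probe read 1575 in *miR-132* MO and 1987 in Ctrl MO embryos, a log2 ratio of -0.58 ± 0.20 or 1.495-fold lower, which by itself falls just short of 1.5-fold. Its second probe read 12.5 in *miR-132* MO embryos, too dim to be well above background there, and 31.9 in Ctrl MO embryos. That probe therefore gives only a nominal bound of 2.25-fold lower. It sets the *miR-132* MO side to 16.8, the lowest intensity that counted as well above background there. This floor lay below the SD of 19.4 of the negative controls on that array, so the bound is not a firm minimum. The mean of the measured ratio and this bound was a log2 ratio of -0.88, or 1.83-fold lower, and is nominal for the same reason. With the measured ratio of the dim probe in place of its bound, the mean was -1.09. Without the dim probe, *per1a* was not past the threshold, so that call rests on a spot near background.

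*per1b*, the other copy, read 2623 in *miR-132* MO and 2307 in Ctrl MO embryos with its bright probe (log2 ratio -0.06 ± 0.20). Its dimmer probe read 62.3 in *miR-132* MO and 37.7 in Ctrl MO embryos (0.48 ± 0.23), and the mean was 0.21. The brighter *per1b* probe thus gave a ratio smaller than its spot error, and its mean ratio had the opposite sign to that of *per1a*.

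*per2*, whose transcript is induced by light in zebrafish, read 439 in *miR-132* MO and 367 in Ctrl MO embryos with 1 probe (log2 ratio 0.01). The other *per2* probe read 87.5 in *miR-132* MO and 66.6 in Ctrl MO embryos (0.15). Both ratios of *per2* were smaller than the spot error of the probes, and their mean of 0.08 was the closest to 0 of the period genes. *per3*, the period gene least tied to the core loop in mammals, read 232.1 in *miR-132* MO and 241.5 in Ctrl MO embryos with its brighter probe (-0.30 ± 0.21). The dimmer *per3* probe read 60.8 in *miR-132* MO and 76.2 in Ctrl MO embryos (-0.57 ± 0.23). Both *per3* probes were lower in *miR-132* MO embryos, with a mean log2 ratio of -0.44, which did not reach 1.5-fold.

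*clocka* encodes the bHLH-PAS activator that pairs with BMAL. Its single probe read 60.9 in *miR-132* MO and 38.6 in Ctrl MO embryos, a log2 ratio of 0.41 ± 0.24 or 1.33-fold higher in *miR-132* MO embryos. This was the highest ratio of the 9 genes, from the probe with the largest spot error among the 15 that were above background on both arrays. The reading of 60.9 stands beside an SD of 19.4 for the negative controls of the *miR-132* MO array. Whether the scanner software's spot error covers that spread was not tested.

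The cryptochromes encode flavoproteins, some of which repress CLOCK and BMAL. *cry1a*, a repressor that light induces in zebrafish cells, read 4491 in *miR-132* MO and 4549 in Ctrl MO embryos (log2 ratio -0.26 ± 0.20). *cry2* read 1572.5 in *miR-132* MO and 1110.6 in Ctrl MO embryos (0.26 ± 0.20). The single probes of these cryptochromes lay the same distance from 0 on either side, slightly over the spot error and well short of 1.5-fold.

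**Figure D2:**
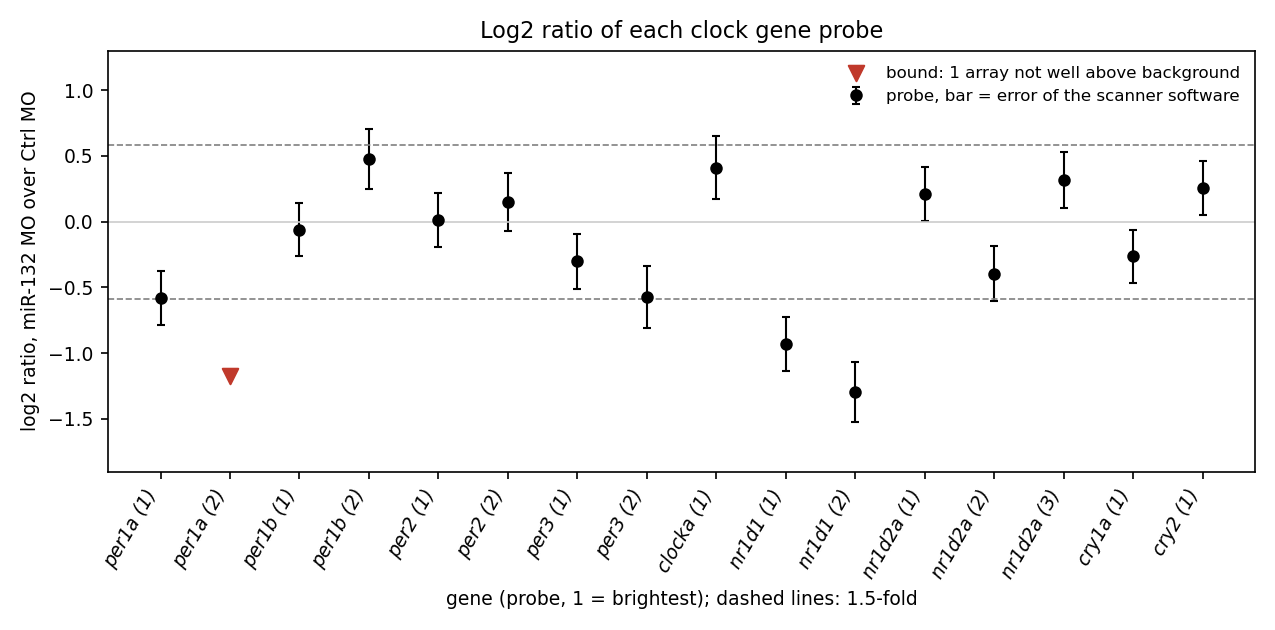
Log2 ratio, *miR-132* MO over Ctrl MO, of every probe of the measured clock genes (points, numbered from the brightest), with bars for the scanner software's error, a red triangle for the bound and dashed lines at 1.5-fold. Both *nr1d1* probes and the *per1a* bound lie below the lower line, and no probe lies above the upper line.

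How often a probe passed 1.5-fold depended on its brightness. Of 11905 probes in the dimmest class (a mean log2 level below -3, relative to the 75th percentile), 13.9% were lower and 7.79% higher. In the brightest class (1 and above) only 3.74% were lower. Of the 16 clock probes, 7 fell in the dimmest class and 2 of these were lower, the dimmer probes of *per1a* (by its nominal bound) and *nr1d1*. The third was the brighter *nr1d1* probe, in the class between -1 and 1, where 5.81% of the 8007 probes were lower. None of the 3 clock probes in the brightest class was lower by 1.5-fold. All 3 had ratios below 0: the bright probe of *per1a* (-0.58, just short of 1.5-fold), *cry1a* (-0.26) and the bright probe of *per1b* (-0.06). The brighter *nr1d1* probe was thus lower at a level where a smaller share of probes was lower. The lowest intensity well above background was 16.8 on the *miR-132* MO array and 7.17 on the Ctrl MO array, and it sets the bounds of dim probes. Measured ratios in place of bounds gave 484 higher and 1222 lower genes of 12232.

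**Figure D3:**
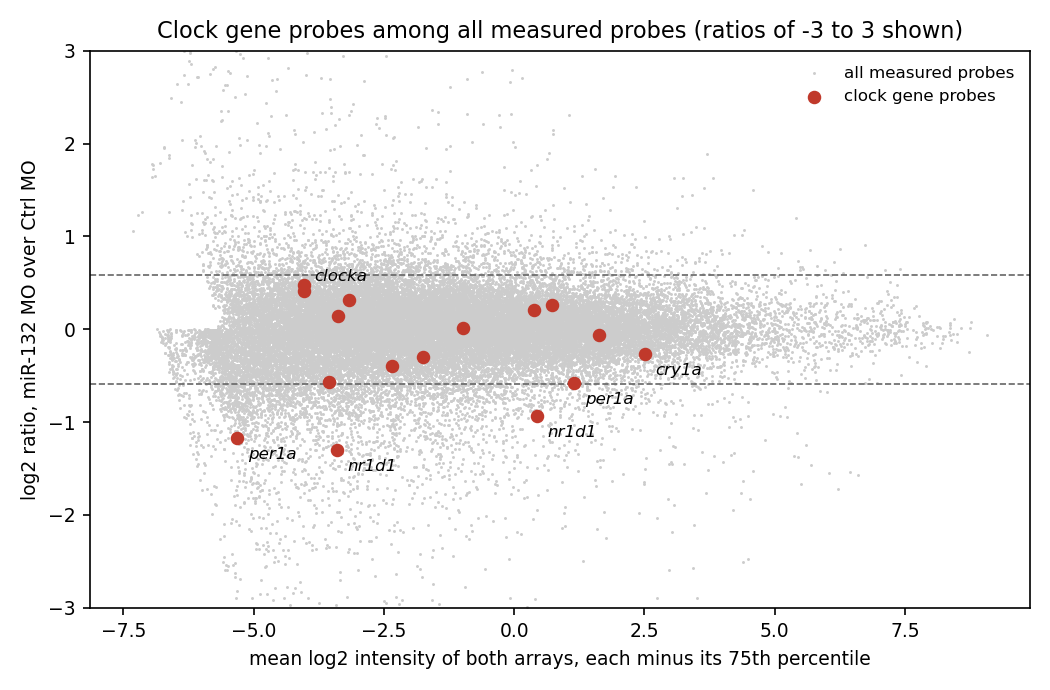
Log2 ratio, *miR-132* MO over Ctrl MO (vertical axis, cropped at -3 and 3), against the mean log2 intensity of the 2 arrays, each minus its 75th percentile, for all measured probes (grey) and the clock probes (red), with dashed lines at 1.5-fold. The grey cloud widens towards dim probes, and both *nr1d1* probes sit below the dense middle.

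A list of 52 other clock pathway genes, which holds none of the clock genes above, was then read in the same way. Of these, 36 were measured. Among the 36 measured genes, 2 were higher in *miR-132* MO embryos by 1.5-fold or more (5.56%) and 4 were lower (11.1%), beside the 4.11% and 8.04% of all genes. The list split evenly around 0, with 18 genes above and 18 below and a median of 0.00. As a whole it did not lie to one side.

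The BMAL genes encode the partners of CLOCK and are repressed by REV-ERB in mammals. *bmal1a* read 3969 in *miR-132* MO and 3333 in Ctrl MO embryos (log2 ratio 0.01). *bmal1b* read 219.9 in *miR-132* MO and 243.6 in Ctrl MO embryos (-0.39), and *bmal2* had a log2 ratio of -0.08. No BMAL gene was higher by 1.5-fold. A link between these levels and the lower *nr1d1* was not tested. Among the other nuclear receptors of this loop, *nr1d2b* had a log2 ratio of -0.14, *roraa* -0.15 and *rorab* -0.21. *rorb*, a retinal and neuronal ROR receptor, was 1.61-fold higher, at 377 in *miR-132* MO and 197.8 in Ctrl MO embryos. *rorca* was 1.61-fold lower, at 39.2 in *miR-132* MO and 53.4 in Ctrl MO embryos. That is a dim reading, on a *miR-132* MO array whose negative controls had an SD of 19.4. The ROR receptors thus held 1 gene past the threshold on each side, each read by a single probe.

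The PAR bZIP factors are output activators of the clock that bind D-box elements, and E4BP4 (*nfil3*) represses through the same elements. The lowest ratio of the whole list was that of *dbpa*, a PAR bZIP factor whose mammalian counterpart is strongly rhythmic. Its probe read 199.96 in *miR-132* MO and 443 in Ctrl MO embryos, 2.63-fold lower (log2 ratio -1.39). *tefb* read 166 in *miR-132* MO and 214 in Ctrl MO embryos (-0.61). *hlfa* had a mean of -0.56 over probes at -0.78 and -0.34, just short of 1.5-fold. A different member, *tefa*, which light induces in zebrafish, was at 0.06 over 4 probes, so the PAR bZIP genes were not uniformly lower.

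*nfil3* read 3385 in *miR-132* MO and 1843 in Ctrl MO embryos, 1.55-fold higher (log2 ratio 0.63). Its relative *nfil3-5* had a log2 ratio of 0.51, short of the threshold. The 5 probes of *nfil3-6* ran between -0.75 and 0.62, with a mean of 0.19. The repressors of the D-box thus included 1 gene past 1.5-fold, on the opposite side to *dbpa* and *tefb*.

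*bhlhe40*, a bHLH repressor of E-box genes, was lower in *miR-132* MO embryos with a mean log2 ratio of -0.61 over probes at -0.66 and -0.56. *bhlhe41*, its close relative, had a mean of -0.41. Both bHLH repressors that were measured therefore lay below 0, and 1 of them past 1.5-fold. The other cryptochromes were mixed: *cry1b* had a log2 ratio of 0.39, *cry3a* -0.45, *cry3b* 0.47 and *cry4* 0.18, none past the threshold. The measured *cry3b* probe read only 60.4 in *miR-132* MO and 36.7 in Ctrl MO embryos. Spots of *cry1b* went down to 21.3 in *miR-132* MO embryos, so both genes had dim readings. The 13 measured kinase and ubiquitin ligase genes, whose products set the stability of PER and CRY proteins, ran between -0.43 and 0.49 and none passed 1.5-fold.

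**Figure D4:**
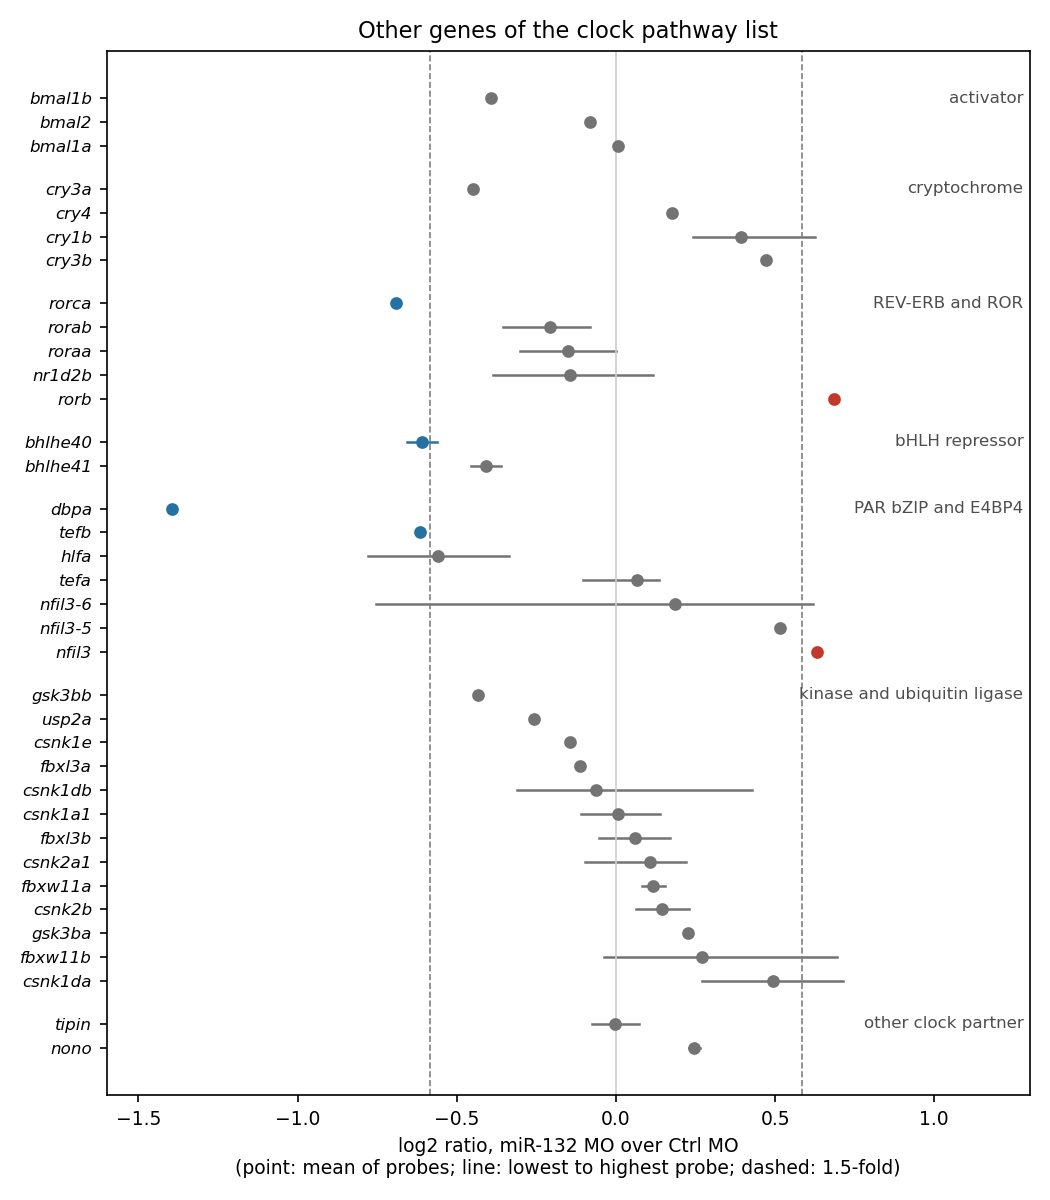
Log2 ratio, *miR-132* MO over Ctrl MO, of the 36 measured clock pathway genes in rows by role, with points for the mean of the probes, lines between the lowest and the highest probe, and dashed lines at 1.5-fold. The genes whose mean lies past a line are *dbpa*, *rorca*, *tefb* and *bhlhe40* (blue, lower) and *rorb* and *nfil3* (red, higher).

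Genes that light induces in zebrafish were read as a separate list of 12 genes, which shares *per2*, *cry1a*, *tefa* and *ciarta* with the lists above. Of its 10 measured genes, 1 was at least 1.5-fold higher (10%) and 0 lower, beside the 4.11% and 8.04% of all genes. The median log2 ratio of the list was 0.04. The gene past the threshold was *fosab*, an immediate early gene that many stimuli other than light also induce. It was 2.22-fold higher in *miR-132* MO embryos (log2 ratio 1.15), with its 5 probes between 1.02 and 1.24. Of these, 1 was not well above background on 1 array, and without it the mean was 1.18. With normexp background correction, the log2 ratio of *fosab* was 0.60, barely past the threshold. The DNA repair and photolyase family genes of the list stayed closer to 0: *cry5*, the (6-4) photolyase gene, had a log2 ratio of 0.43, *xpc* 0.33, *neil1* 0.02, *cpdp* 0.01, *ddb2* -0.02 and *cry-dash* -0.04. Apart from *fosab*, none of the 10 measured genes of this list passed 1.5-fold.

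Clock genes are also expressed in photoreceptors and the pineal gland, and markers of these cells were read in the same way. The marker lists were chosen with earlier results of these data known. Their counts stand beside 8.04% of all measured genes lower by 1.5-fold or more and 4.11% higher. All 14 measured photoreceptor genes of 16 listed were lower in *miR-132* MO embryos, with log2 ratios between -2.08 and -1.03. Their summed level was 98.2 in *miR-132* MO and 295 in Ctrl MO embryos, in units of each array's 75th percentile. The largest term of both sums was *gngt2b*, at log2 levels of 5.74 in *miR-132* MO and 7.30 in Ctrl MO embryos, so the sums mostly follow the brightest genes. The part of the photoreceptor genes in the lower *nr1d1* and *dbpa* was not tested. The 5 pineal genes were mixed, with a summed level of 6.69 in *miR-132* MO and 5.15 in Ctrl MO embryos. Of these, *exorh* (log2 ratio 0.14), *otx5* (0.49) and *bsx* (-0.03) did not pass 1.5-fold. *aanat2*, the enzyme of the nightly melatonin rhythm in the zebrafish pineal gland, read 650 in *miR-132* MO and 319.6 in Ctrl MO embryos, 1.71-fold higher. *asmt*, the last enzyme of melatonin synthesis, was too dim in *miR-132* MO embryos to be well above background. With that side set to 16.8 it was 2.12-fold lower, a nominal bound as for *per1a*. Among 7 neuron genes 1 was lower (*syn2a*), with a median of -0.25 and a summed level of 27.0 in *miR-132* MO and 31.1 in Ctrl MO embryos. Among 7 muscle genes 1 was lower (*acta1b*), with a summed level of 679 in *miR-132* MO and 766 in Ctrl MO embryos. Of these 4 marker lists, the photoreceptor list alone had every measured gene past 1.5-fold.

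The ratios were recomputed under other ways of processing the same intensities. *nr1d1* lay between -1.12 and -0.82 under all settings that were run, and *dbpa* between -1.41 and -1.03, past 1.5-fold under each. *per1a* lay between -1.09 and -0.58 and was short of 1.5-fold, at -0.58, where the dim probe was left out. *clocka* (0.24 to 0.48), *cry2* (0.05 to 0.32), *per3* (-0.45 to -0.30) and *cry1a* (-0.37 to -0.20) kept their sign in every setting, short of 1.5-fold. *per1b*, *per2* and *nr1d2a* changed sign in at least 1 setting. With normexp background correction, *nfil3* was short of 1.5-fold at 0.45, as were *bhlhe40* at -0.52, *tefb* at -0.55 and *rorca* at -0.47. *bhlhe40* and *tefb* were also short of it with spike-in scaling, both at -0.55.

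**Figure D5:**
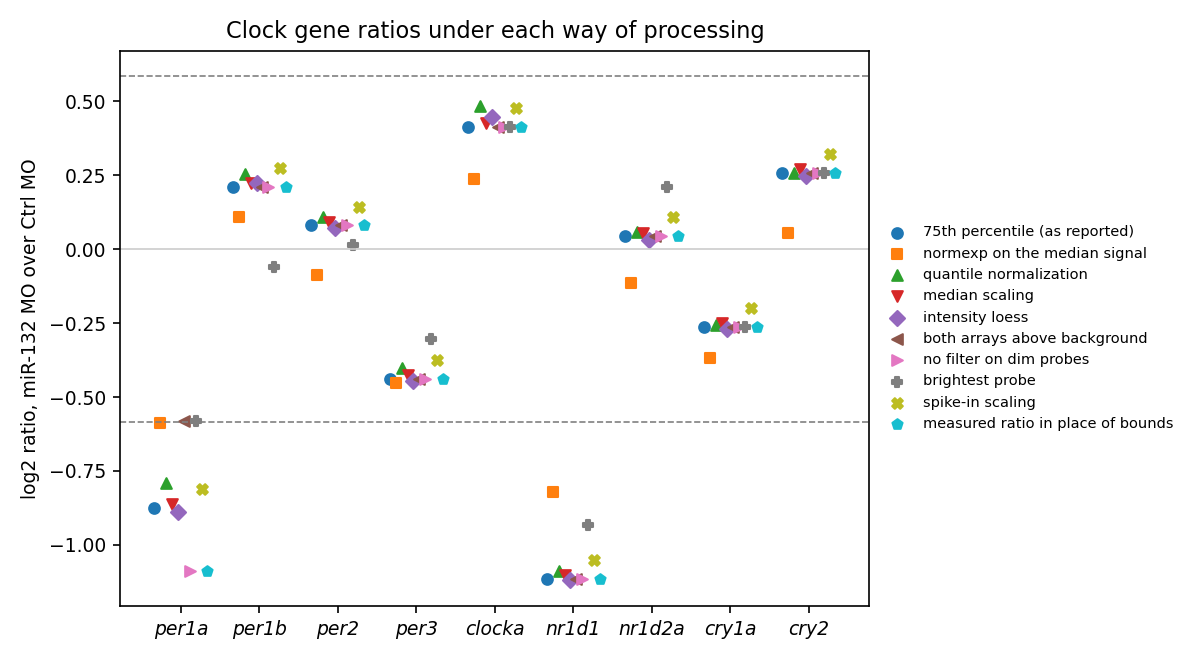
Log2 ratio, *miR-132* MO over Ctrl MO, of each measured clock gene (mean of its probes) as reported (blue circle) and under each alternative (other marks, named in the legend), with dashed lines at 1.5-fold. *nr1d1* stays beyond the lower line throughout, *per1a* lies beyond it in most settings and just short of it where the dim probe was left out, and the other genes stay between the lines.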

How the data were processed

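RNA of 1 sample per group was hybridised to 1 one-colour (Cy3) Agilent array. The authors deposited the spot intensity that Agilent Feature Extraction 10.7 (per the submitters' processing notes) had background-subtracted and detrended within each array, not normalized between arrays. A table of the authors' selected probes with normalized values and ratios, and a rounded copy of the scanner values, were not used.

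Spots with outlier flags were left out, which kept 43006 of 43603 probes. The log2 intensity was set relative to the 75th percentile of its array, and spots of a probe were averaged. Probes well above background on either array were kept, where a ratio could be had (36235 probes). Where a probe was dim on 1 array, its dim side was raised to the lowest intensity above background there if it lay under it, and the probe was dropped if no fold above 1 remained. In 613 genes a probe was dim on 1 array. Probes were matched by accession to the gene table of assembly GRCz12tu (24670 probes), and the probes of a gene were averaged. Differences are *miR-132* MO minus Ctrl MO. No coordinates are given, since the array's annotation uses an older build.

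The members and the gene lists were chosen with earlier results of these data known. All clock genes, and every gene of the pathway and light lists past 1.5-fold, were to be named. The remaining genes of these lists and the markers were named for their role after their values were seen. No test was made with 1 array per group. Spot error was taken from the scanner software, and 26 probes printed on 4 to 5 usable spots had a pooled SD of 0.17 in the log2 ratio. The precision is limited by the number of arrays.

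Alternatives were normexp background correction (offset 50, on the median signal, since the scanner files used hold no mean signal), quantile normalization, median scaling, intensity loess (span 0.3), other probe filters, the brightest probe, every probe past the threshold and a 2-fold threshold. Spike-in scaling and measured ratios in place of bounds were added after seeing the data. The scripts were tested on simulated data, in which both arrays started from the Ctrl MO array. Every probe there had the same background flag on both arrays. The rule for bounds and the normexp correction were therefore not covered by that test. The work used R 4.3.3 with limma 3.58.1, and Python 3.11.15 with numpy 2.4.6, pandas 2.3.3, matplotlib 3.10.9 and statsmodels 0.14.6.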

Additional observations from a re-analysis of the deposited data

How the results depend on the processing

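Of 81 values of single clock genes under the alternatives, 10 moved by at least the pooled SD of replicate spots (0.17 on the log2 scale, which is smaller than the scanner error of any single clock probe), 4 of them with normexp background correction. The count of clock genes at least 1.5-fold lower, 2 in the main setting, was 1 with both arrays above background, with the brightest probe, with every probe past the threshold and at 2-fold. *nr1d1* was the gene that remained past the threshold in each of these. The clock pathway genes past the threshold, 2 higher and 4 lower in the main setting, became 1 higher and 1 lower with normexp, 0 higher and 1 lower at 2-fold, and 2 lower with spike-in scaling. Over all genes, 1455 were past the threshold in either direction in the main setting, 810 with normexp and 541 at 2-fold. The median log2 ratio of the 9 measured clock genes ran between -0.11 and 0.11.

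The dim end of the *miR-132* MO array, with its wider negative controls, limits the dimmer probes of *per1a*, *per1b*, *per3* and *nr1d1*. It also limits, among others, the single measured probes of *clocka*, *rorca* and *cry3b* and the dimmer readings of *cry1b*. The scanner software's error of such probes was not compared with the spread of those controls. No paired analysis was possible because a single array stands for either treatment. For the same reason leaving out a replicate was not possible.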
